A study of Mus musculus with 2 samples.

Results

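The genes described here encode the proteasome, the protease complex that degrades ubiquitin-tagged proteins, and were followed in inguinal white adipose tissue, a fat depot under the skin of the groin. Members were chosen by name, as the genes with the prefix Psm and a subunit letter from a to g, together with Pomp and Nfe2l1. This rule found 52 genes among the 19938 that were measured and named. Of these, 50 are proteasome genes, and 2 (Psmc3ip and Psme3ip1) carry a matching name without being subunits. The mice were C57BL/6J males without apolipoprotein E (ApoE). One genotype lacked ApoE alone (ApoE-KO, ApoE-/-), and the other, made by crossing UCP1-KO and ApoE-KO mice, also lacked uncoupling protein 1, the heat-producing carrier of brown and beige adipocyte mitochondria (UCP1/ApoE-DKO, Ucp1-/-;ApoE-/-, here DKO). All were kept at 23 °C and, once 9 weeks old, ate high-fat food during 9 weeks. Neither group had intact ApoE.

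The RNA of 3 mice per genotype was mixed and hybridised to 1 Affymetrix array, so the data are 2 arrays and nothing measures the spread between mice. No difference below has a replicate check or a p-value. Values are the deposited probe set intensities, and a difference is the log2 intensity of the array labelled DKO minus that of the array labelled ApoE-KO, so that 1 means 2-fold. Paired intensities are given in the order DKO, ApoE-KO, and a value after them in brackets is this difference. An expression floor was set at an intensity of 197, the median over named probe sets, which is a rule of this work and not a detection limit. Of the 52 members, 47 lay on or above the floor, and the comparison set was the 9891 genes that did so. In that set the median difference was -0.011, the middle 50% of genes lay between -0.19 and 0.20, and the middle 90% between -0.52 and 0.76.

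Ucp1 itself gave 2229.9 on the array labelled DKO and 219 on the array labelled ApoE-KO (probe set 10573152), against the label if the probes read the deleted part of the gene, whose position relative to the probes is unknown here. Apoe gave 502 and 589. The arrays are therefore named by their labels, and every direction below rests on them. General adipocyte markers were well above the floor on both arrays, with 9 of 10 listed genes measured and a median difference of 0.05 (-0.0022 under quantile normalization). Adiponectin (Adipoq) gave 6164 on the array labelled DKO and 6714 on the array labelled ApoE-KO. The tissue pools were not alike in other cells. All 18 measured skeletal muscle markers were lower on the array labelled DKO, with a summed intensity of 2596 against 44356, and 15 of them lay below the floor there. All 10 brown and beige markers were higher, with a summed intensity of 22437 against 3623. All 10 fibroblast and progenitor markers were lower, with a median of -0.56 and summed intensities of 22417 and 32874, whereas endothelial markers had a median of 0.065 over 8 genes, of which 5 were higher (4 under quantile normalization). Leukocyte markers, also lower, are given with the immune subunits. Most proteasome genes are active in every cell type. Each value below is a mixture over the cells of the tissue, and less RNA per cell cannot be told apart from fewer cells. The part of the muscle, brown and beige and fibroblast transcripts in the proteasome values was not tested.

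The 26S proteasome is a barrel-shaped 20S core with a 19S cap on one or both ends. The core stacks rings of alpha subunits, which form the gate, and beta subunits, of which Psmb5, Psmb6 and Psmb7 encode the catalytic ones. The cap recognises ubiquitin chains, removes them and unfolds the substrate. In immune cells, and in other cells exposed to interferon gamma, the catalytic subunits are replaced during assembly by the products of Psmb8, Psmb9 and Psmb10, which gives the immunoproteasome and changes the peptides offered to MHC class I. In brown fat, the transcription factor encoded by Nfe2l1 is known to maintain proteasome gene expression during cold exposure.

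The constitutive subunits of core and cap were higher on the array labelled DKO, and the immune subunits were lower. Of the 31 constitutive subunit genes, 31 were higher (30 under quantile normalization, where Psmd1 turned to -0.015), with a median difference of 0.45 (1.37-fold) and a range from 0.054 to 0.9999. Of the 3 immune subunit genes, 3 were lower, with a median of -0.19. Across the comparison set, 48.2% of genes were higher by any amount. By size, 9 of the 47 members above the floor were at least 1.5-fold higher, or 19.1%, where 7.57% of all genes above the floor were. Of these members, 0 were 1.5-fold lower, where 3.73% of all genes were, and 0 reached 2-fold in either direction, where 2.79% of all genes were 2-fold higher and 0.698% lower. The shift was thus shared by many members and modest in each, and it lay inside the middle 90% of all genes for all but 4 members (Psmb5, Psmb7, Psmd8 and Psma1).

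**Figure D1:**
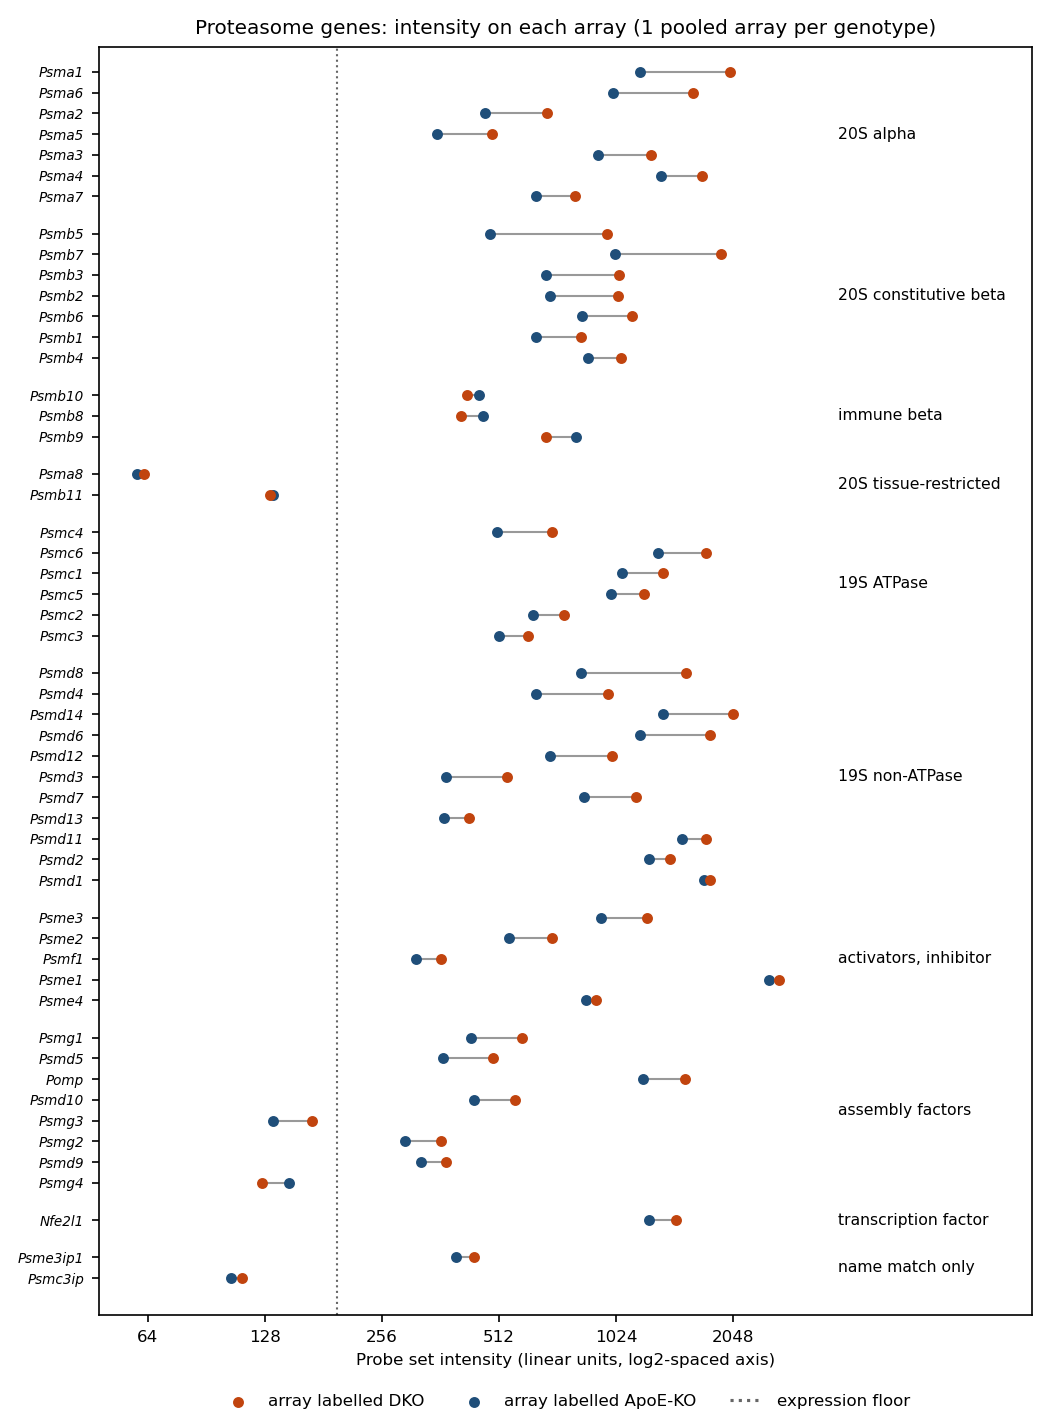
Intensity of each proteasome gene on the array labelled DKO (orange) and the array labelled ApoE-KO (blue), 1 pooled array per genotype, ordered by role and by difference, on a log2-spaced axis, with the expression floor of 197 as a dotted line. The orange point lies to the right in all 31 constitutive subunits of the 20S core and the 19S cap (30 under quantile normalization, where Psmd1 turned) and to the left in the immune subunits Psmb8, Psmb9 and Psmb10.

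The catalytic core genes Psmb5 and Psmb7 were among the members with the largest differences. Psmb5, which encodes the subunit with chymotrypsin-like activity (probe set 10419810), had an intensity of 969.7 on the array labelled DKO and 485 on the array labelled ApoE-KO, with a difference of 0.9999 that came just short of 2-fold. Psmb7, the trypsin-like subunit (probe set 10482229), had 1903 and 1014, a difference of 0.91. Psmb6, the caspase-like subunit (probe set 10377851), had 1128 and 836, a difference of 0.43. The 3 catalytic genes were therefore all higher, but not by one common amount, and Psmb6 lay near the median of the constitutive subunits.

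The other constitutive beta subunits are structural. Psmb3 had 1043 on the array labelled DKO and 676 on the array labelled ApoE-KO, with a difference of 0.63. Psmb2 had 1036 and 692, a difference of 0.58 and a fold of 1.498, just under 1.5. Psmb1 had 832 and 636 (0.39). Psmb4, which like the others has no peptidase activity of its own, had the smallest difference of the constitutive beta genes, with 1053 and 869 (0.28). All 7 constitutive beta genes were higher, with a median of 0.58 and a range from 0.28 to 0.9999, and 3 were at least 1.5-fold higher.

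The alpha subunits, which form the outer rings and the gate of the core, were also higher in 7 of 7 genes, with a median of 0.47 and a range from 0.33 to 0.77. Psma1 had 2012 on the array labelled DKO and 1177 on the array labelled ApoE-KO, with a difference of 0.77. Psma6 followed with 1616 and 1006 (0.68). These were the 2 alpha genes past 1.5-fold. Psma2 stood at 680.2 and 473 (0.53), and Psma5 at 491 and 354 (0.47). Psma3 stood at 1261 and 922 (0.45). The smallest differences in this ring were those of Psma4, whose product has the main gate-closing tail, with 1699 and 1332 (0.35), and Psma7, with 803 and 639 (0.33). The alpha and constitutive beta ranges overlapped over most of their length.

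Tissue-restricted core genes lay below the floor on both arrays. Psma8, the alpha subunit of testis, gave 62.6 and 60.2, and Psmb11, the catalytic subunit of the thymus, gave 132 and 135. Their differences of 0.055 and -0.027 carry no direction, and that of Psmb11 turned to between 0.022 and 0.025 under the 3 other scalings.

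The immune catalytic genes went the other way from their constitutive partners. Psmb8, which replaces Psmb5 (probe set 10444258), had an intensity of 408 on the array labelled DKO and 465 on the array labelled ApoE-KO, with a difference of -0.19. Psmb9, which replaces Psmb6 (probe set 10450145), had 676 and 807 (-0.26). Psmb10, which replaces Psmb7 (probe set 10581378), had 423 and 456 (-0.11). Each of these was lower by at most 1.19-fold, and Psmb10 by 1.08-fold, sizes that many genes reached: the lower quartile of all genes above the floor was -0.19. Set against its partner, however, each immune gene differed more. The difference of Psmb8 minus that of Psmb5 was -1.19, that of Psmb9 minus Psmb6 was -0.69, and that of Psmb10 minus Psmb7 was -1.02. The immune-to-constitutive ratio was thus 2.28-fold, 1.61-fold and 2.02-fold lower on the array labelled DKO, and most of each shift came from the constitutive gene.

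Psmb9, Tap1, Psmb8 and Tap2 follow one another on mouse chromosome 17, in the MHC region (RefSeq, GRCm38.p6). Tap1 and Tap2 encode the transporter that carries proteasome peptides into the endoplasmic reticulum. Tap1 had 570.4 on the array labelled DKO and 827 on the array labelled ApoE-KO, with a difference of -0.54, and Tap2, named for its position, had 528 and 573 (-0.12). All 4 genes of this row were lower, Tap1 by most. Among the other genes, Psmb5 and Psmb11 are neighbours on chromosome 14, where Psmb5 was higher and Psmb11 lay below the floor. Members lie on 16 chromosomes, so most of those that were higher together are not neighbours.

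Promoter sequence is shown for the immune catalytic genes and their constitutive partners. Each run is the 120 bases before the RefSeq transcription start (GRCm38.p6), 5′ to 3′ on the strand of the gene, with matches in capitals to any of 4 motifs searched on both strands. These were the antioxidant response element core TGACNNNGC, bound by Nfe2l1 and its relatives, the CCAAT box, the interferon response element, GAAA followed after any 2 bases by GAAA, and the interferon gamma-activated site TTCNNNGAA. No promoter of a member held overlapping matches to different motifs. Psmb7 was not among the promoters used.
Psmb5, chr14:54617996-54618115, minus strand: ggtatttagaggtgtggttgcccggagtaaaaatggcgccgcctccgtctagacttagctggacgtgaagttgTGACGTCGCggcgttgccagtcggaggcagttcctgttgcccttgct
Psmb6, chr11:70525237-70525356, plus strand: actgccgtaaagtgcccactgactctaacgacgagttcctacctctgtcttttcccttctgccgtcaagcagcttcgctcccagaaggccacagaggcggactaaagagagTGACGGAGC
Psmb8, chr17:34198075-34198194, plus strand: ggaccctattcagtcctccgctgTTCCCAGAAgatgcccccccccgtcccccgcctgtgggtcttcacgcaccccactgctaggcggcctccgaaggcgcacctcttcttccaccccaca
Psmb9, chr17:34187331-34187450, minus strand: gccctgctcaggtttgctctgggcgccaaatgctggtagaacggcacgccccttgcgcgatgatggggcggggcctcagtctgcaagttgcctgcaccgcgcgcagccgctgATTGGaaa
Psmb10, chr8:105938393-105938512, minus strand: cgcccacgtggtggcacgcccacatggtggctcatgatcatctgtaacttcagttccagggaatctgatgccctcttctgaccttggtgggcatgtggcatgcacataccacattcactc

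The capitals mark an antioxidant response element core in Psmb5 (TGACGTCGC, bases -47 to -39 from the start) and in Psmb6 (TGACGGAGC, bases -9 to -1). In Psmb8 they mark an interferon gamma-activated site (TTCCCAGAA, bases -97 to -89), and in Psmb9 a CCAAT box on the opposite strand (bases -8 to -4). Psmb10 held no match. Windows of 300 bases, 250 before and 50 after the start, were available for 42 of the 50 proteasome genes, and the first listed was taken for genes with several. The antioxidant core was found in 6 of 42, or 14.3%, against 12.5% of 27025 promoters. The CCAAT box was found in 15 of 42, or 35.7%, against 37.9%. By group, 6 of 11 constitutive core genes held it, 4 of 14 cap genes, 1 of 7 assembly factors and 1 of 3 immune genes. The interferon gamma-activated site was found in 3 of 42, or 7.14%, against 8.47%. The interferon response element was found in 5 of 42, or 11.9%, against 3.49%, and in 0 of the 3 immune genes. The 5 were Psmb3, Psmd4, Psmd9, Psme1 and Psmg4. The first 4 were higher on the array labelled DKO, as were 45 of all 50 proteasome genes, or 90%. Psmg4 lay below the floor. A match is a description of the letters and not a binding site. A missing match does not show that a gene lacks such an element, since only 1 spelling of each motif was searched, in 1 window.

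**Figure D2:**
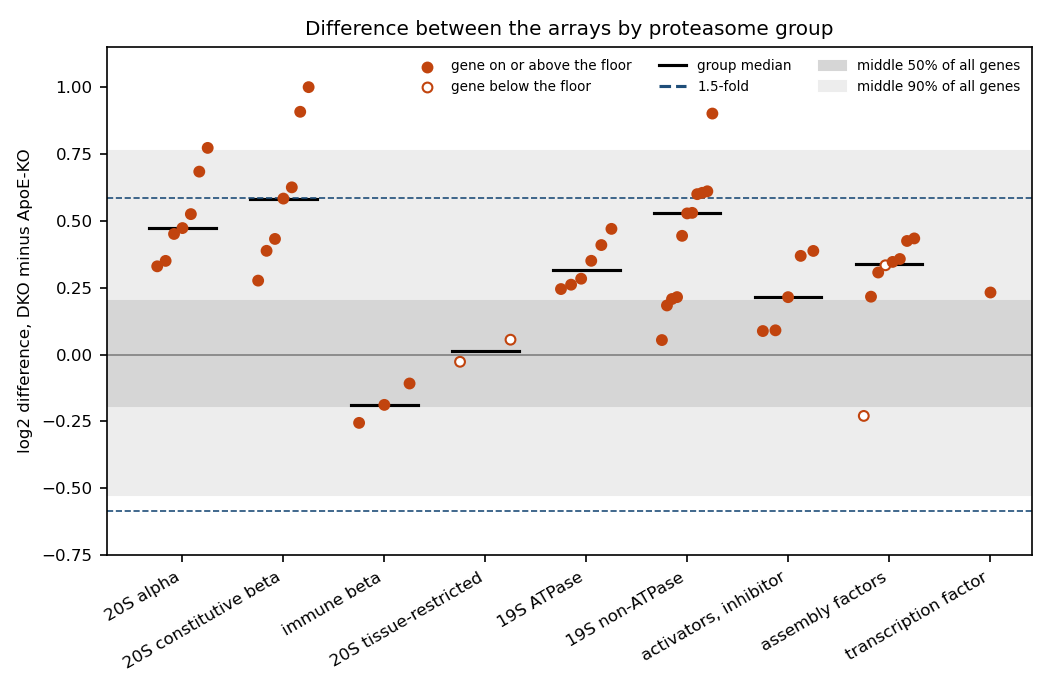
Log2 difference between the arrays (DKO minus ApoE-KO) for each proteasome gene by group, with group medians as black bars, 1.5-fold as dashed lines, and the middle 50% and 90% of the 9891 genes above the floor as grey bands. Constitutive core and cap genes lie above 0 (Psmd1 turned to -0.015 under quantile normalization) with medians between 0.32 and 0.58, and the 3 immune genes lie between -0.26 and -0.11.

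The 19S cap genes found by the naming rule were higher in 17 of 17 (16 under quantile normalization). Their median was 0.41, with a range from 0.054 to 0.90. The 14 constitutive core genes had a median of 0.50 and a range from 0.28 to 0.9999. The ranges overlap, and with 1 array per genotype the gap between these medians could not be tested. Within the cap, the 6 ATPases were the most alike. These genes encode the ring of motors that unfolds substrates, and their differences ran from 0.24 to 0.47 with a median of 0.32. Psmc4 had 703 on the array labelled DKO and 507 on the array labelled ApoE-KO (0.47). Psmc6 had 1742 and 1312 (0.41), and Psmc1 had 1352 and 1061 (0.35). The smaller differences were those of Psmc5 (1206 and 991, 0.28), Psmc2 (752 and 627, 0.26) and Psmc3 (608 and 513, 0.24). No ATPase gene reached 1.5-fold.

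The non-ATPase genes of the cap were more spread, from 0.054 to 0.90 over 11 genes, with a median of 0.53. Psmd8, a structural subunit of the lid, had 1551 on the array labelled DKO and 830.5 on the array labelled ApoE-KO, with a difference of 0.90, next to the 0.91 of Psmb7 and above it under quantile normalization (0.86 and 0.85). Psmd14, the deubiquitinase that removes ubiquitin chains from substrates, had 2050.2 and 1348 (0.60). Psmd6 had 1786 and 1178 (0.60). With Psmd4, these were the 4 cap genes at least 1.5-fold higher. Further lid genes were Psmd12 (998 and 691, 0.53), Psmd3 (538 and 373, 0.53) and Psmd7, the partner of the deubiquitinase (1150.4 and 846, 0.44). Psmd13 (428 and 369, 0.21) and Psmd11 (1743 and 1509.5, 0.21) were the smallest in the lid. All 8 lid genes found by the naming rule were higher, with a median of 0.53.

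The base of the cap also holds non-ATPase subunits that bind ubiquitin and its shuttles. The ubiquitin receptor gene Psmd4 had 973 on the array labelled DKO and 638 on the array labelled ApoE-KO (0.61). The 2 large scaffold genes stood far lower in the order. Psmd2 had 1412 and 1243 (0.18), and Psmd1 had 1788 and 1722 (0.054). Psmd1 was the least different of the 31 constitutive subunits, and its sign turned under quantile normalization (-0.015). Sem1, a small lid subunit outside the naming rule that was picked after its values were seen, had 436 and 375 (0.22). Adrm1, a further cap gene outside the rule, had no probe set annotated to 1 symbol only and was left out.

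Proteasome activators open the gate of the core in place of the cap. They were higher by smaller amounts, with 4 of 4 higher and a median of 0.23. Psme3, the nuclear activator PA28 gamma, had 1226 on the array labelled DKO and 937 on the array labelled ApoE-KO (0.39). Psme1 and Psme2 encode PA28 alpha and beta, which form one interferon-inducible ring. Psme2 had 701 and 543 (0.37), whereas Psme1 had 2689 and 2526 (0.091). A further probe set annotated to both Psme2 and its copy Psme2b, left out by the rule, had 526 and 559.6, a difference of -0.089, so the 2 probe sets that list Psme2 differed in sign, and the signals of the gene and its near-identical copy cannot be told apart. Psme4, the activator PA200, had 912 and 858 (0.088). Psmf1, which encodes the inhibitor PI31, had 363 and 312 (0.21). None of these 5 genes was 1.5-fold different.

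Assembly factors build the core and the cap and then leave or are degraded. Of 8 genes, 7 were higher, with a median of 0.34, 0 of them by 1.5-fold, and 6 lay above the floor. Pomp, the maturation protein of the core, had 1541 on the array labelled DKO and 1203 on the array labelled ApoE-KO (0.36). Psmg1 and Psmg2 encode partners in one alpha-ring chaperone. Psmg1 had 587 and 435 (0.43), and Psmg2 had 363 and 294 (0.31). Psmg3 and Psmg4 encode a further chaperone pair and lay below the floor on both arrays, Psmg3 with 169.8 and 135 (0.33) and Psmg4 with 126 and 148 (-0.23). The chaperones of the ATPase ring were Psmd5 (494 and 368, 0.42), Psmd10 (563 and 443, 0.35) and Psmd9 (374 and 322, 0.22). All assembly genes above the floor were thus higher, and the 1 lower gene lay below it.

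Nfe2l1, the transcription factor of proteasome genes, had 1462 on the array labelled DKO and 1244 on the array labelled ApoE-KO, with a difference of 0.23 (1.18-fold). Its activity is set largely after transcription, by deglycosylation and cleavage, which an array does not measure. Of 14 listed genes for its processing and its partners, 13 were measured, 6 were higher (8 under median centring and 7 under loess) and 7 lower, and none was 1.5-fold different. Their median was -0.013 and turned to 0.039 under median centring and 0.033 under loess. The largest differences above the floor were those of the glycosyltransferase gene Ogt (1499.9 and 1811, -0.27), the small Maf partner Mafg (520.5 and 450.1, 0.21), the ubiquitin ligase gene Fbxw7 (-0.15) and the Ogt partner Hcfc1 (-0.14). The genes matched by name only were the recombination factor Psmc3ip, below the floor with 112 and 105 (0.10), and Psme3ip1, with 442 and 397 (0.15).

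Genes that work with the proteasome, in ubiquitin supply, as shuttles or bound to it, had a smaller median difference than its constitutive subunits. Of 29 listed genes of ubiquitin supply, substrate shuttles and proteasome-bound enzymes, 19 were measured, 15 were higher (14 to 16 under other scalings) and 4 lower, and the median was 0.096. The list also holds the lid subunit gene Sem1. The median over the constitutive subunits was 0.45, and that over all genes above the floor -0.011. Ufd1, which encodes an adaptor of the segregase Vcp, was the 1 gene at 1.5-fold, with 1233 on the array labelled DKO and 822 on the array labelled ApoE-KO (0.59). The shuttle gene Ubqln4 had 626 and 459.9 (0.44), and the Vcp cofactor gene Nsfl1c had 823 and 648 (0.34). The ubiquitin-activating enzyme gene Uba6 was lower, with 389 and 495 (-0.35). Vcp itself, picked after its values were seen, gave 2138 and 2021 (0.081).

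The immune subunits were read beside the genes they work with. In MHC class I peptide loading, 11 of 15 listed genes were measured, 10 were lower on the array labelled DKO (9 to 11 under other scalings), and the median was -0.18, close to the -0.19 of the immune subunits. The class I genes H2-K1, H2-D1, H2-Q7 and H2-T23 had no probe set annotated to 1 symbol only and were left out. H2-Q4, a class I gene whose family members are alike in sequence, had 1139 and 1747 (-0.62) and was the 1 gene at least 1.5-fold lower. Erap1, a trimming peptidase, had 708 and 871 (-0.30), and Tapbp, the bridge between transporter and class I, had 1713 and 2008 (-0.23). Of 20 listed interferon gamma response genes, 16 were measured and 15 were lower, with a median of -0.31, and 3 were at least 1.5-fold lower. These were the class II transactivator Ciita (256 and 485, -0.93), the chemokine Cxcl10 (529 and 850.3, -0.69) and the nucleotide hydrolase gene Samhd1 (1336 and 2083, -0.64). The transcription factor gene Irf8 stood at 381 and 563 (-0.56).

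Markers of the cells that are rich in immunoproteasome had larger negative medians than the immune subunits, and so did the fibroblast and progenitor markers (-0.56). All 10 markers of leukocytes in general were lower, with a median of -0.69 and a summed intensity of 8559 on the array labelled DKO against 13893 on the array labelled ApoE-KO. Ptprc, which encodes CD45, had 1117 and 2014 (-0.85). Macrophage markers were lower in 14 of 14, with a median of -0.49 and summed intensities of 14438 and 20423. T and NK cell markers were lower in 12 of 13 measured, with a median of -0.39 (sums 4415 and 6273), and B cell markers in 9 of 9 measured, with a median of -1.08 (sums 3410.4 and 6856). No marker was at 0 on either array, and all 10 general leukocyte markers lay above the floor on both. The part of any of these cells in the values of Psmb8, Psmb9 and Psmb10 was not tested.

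**Figure D3:**
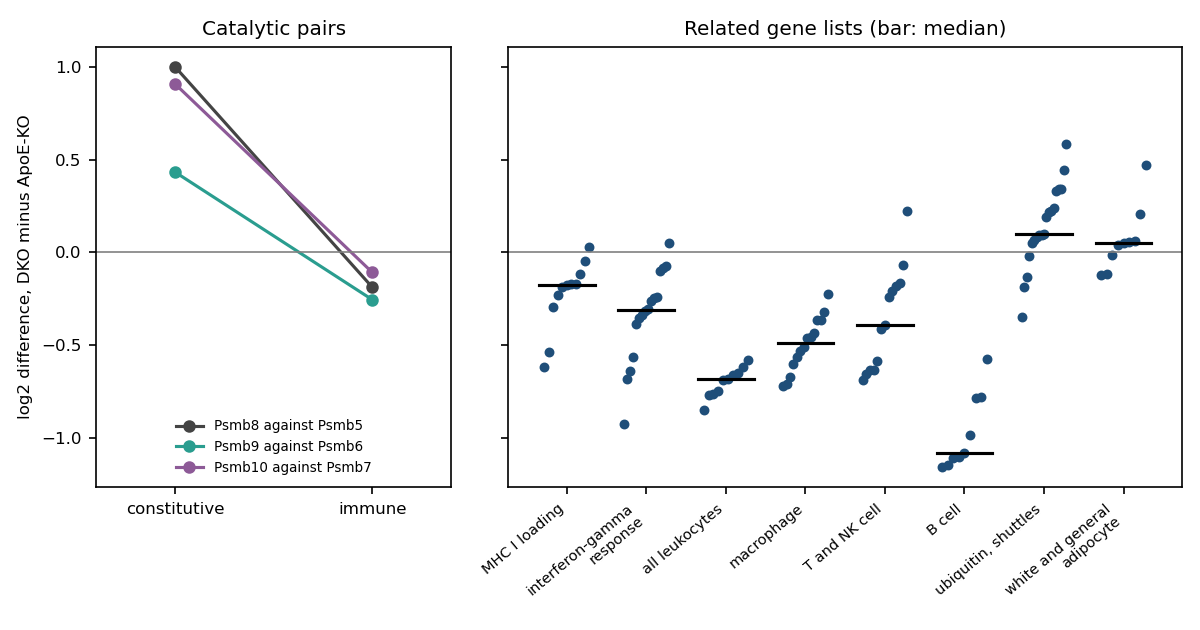
Left, log2 difference (DKO minus ApoE-KO) of the 3 constitutive catalytic genes, each joined to the immune gene that replaces it. Right, the same difference for every measured gene of 8 related lists, with the median as a bar. The constitutive genes lie between 0.43 and 0.9999 and the immune genes between -0.26 and -0.11, and the general leukocyte list has its median at -0.69.

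Several probe sets were present for 5 members, and they agreed in direction in each. The 3 probe sets of Psma3 differed by 0.38, 0.39 and 0.45. Those of Psma5 differed by 0.47 and 0.39, those of Psmb3 by 0.63 and 0.72, and those of Psmc1 by 0.35 and 0.43. The widest gap was in Psmd2, with 0.18 for the brighter probe set, which was used, and 0.36 for the other. Within a gene, then, the probe sets of these 5 genes lay at most 0.17 apart, a spread that covers the choice of probes and not the animals.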

How the data were processed

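The authors deposited 1 linear intensity per probe set and array, for 35557 probe sets on 2 arrays, from 3.55 to 23636, with medians of 152.1 (labelled DKO) and 157.7 (labelled ApoE-KO). Not given in the sources used here are the scanner software, background correction, probe summarisation and scaling. Intensities carry no detection call, and with 1 array per group their number limits the precision. Log2 was taken with no offset, and ApoE-KO was subtracted from DKO. By the platform annotation, 21789 probe sets had 1 symbol and were used, 1621 had several and 12147 had none here. A gene is called measured where it had a probe set with 1 symbol. A listed gene without one may still be on the array. The probe set with the highest mean over both arrays stood for a gene. All members are named. Genes of the related lists are named from the 4 above the floor that differed most in each, and Sem1, Vcp and Tap2 were added after their values were seen. The members, lists and 1.5-fold and 2-fold sizes were chosen with earlier results of these data known. Promoters came from RefSeq (GRCm38.p6). The calculation was tested on simulated data. Python 3.11.15, pandas 2.3.3 and statsmodels 0.14.6 (loess) were used.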

Additional observations from a re-analysis of the deposited data

How the results depend on the processing

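Alternatives were median centring, quantile normalization, loess with a span of 0.4, an offset of 50, averaging all probe sets of a gene, members above the floor only, the mean in place of the median, no floor, a floor at percentile 75 and a 3-fold size. All 63 alternative values of the 9 group medians kept their direction and lay within 0.1 of the reported value. Some of the alternatives could not differ. Averaging leaves a gene with 1 probe set unchanged, and leaving out members below the floor leaves a group wholly above it unchanged. The median over the constitutive subunits stayed between 0.40 and 0.50 and that over the immune subunits between -0.19 and -0.14. The differences of the 3 catalytic pairs moved by less than 0.1 in 15 of 15 values. Median centring and averaging could not move them, because a constant shift cancels within a pair and each of these genes had 1 probe set. Of 260 alternative values of single members, 4 changed sign: Psmb11 gave 0.025 under median centring, 0.023 under quantile normalization and 0.022 under loess, and Psmd1 gave -0.015 under quantile normalization. The count of members at least 1.5-fold higher, 9, ran from 6 to 10. The count at least 2-fold higher, 0, became 1 (Psmb5) under median centring and under loess. Among the related lists, the Nfe2l1 processing median turned to 0.039 under median centring and 0.033 under loess, and the adipocyte median to -0.0022 under quantile normalization. A further 7 values of list medians moved by over 0.1 and kept their direction. With the offset, brown and beige went from 2.80 to 2.52, muscle from -4.21 to -3.74 and B cell from -1.08 to -0.98. With the mean they gave 2.62, -3.79 and -0.97, and T and NK cell went from -0.39 to -0.50 with members above the floor. Leaving out a replicate was not possible with 1 array per group. No paired analysis was possible because each genotype had 1 array.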
